A study of Mus musculus with 6 samples.

Results

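Collagen genes of the mouse trigeminal ganglion were described as all rows of a deposited expression table whose gene name consists of Col, a number, the letter a and a second number. The rule found 31 of the 13673 rows, and 30 of them encode collagen chains. They were grouped as 11 fibrillar chains, 3 chains of basement membrane (type IV) collagen, 5 FACIT chains (fibril-associated collagens with interrupted triple helices) and 11 chains of other types. The remaining row, Col4a3bp, matches by spelling and encodes a ceramide transfer protein, so it was kept out of the classes. Of 44 chains listed for the classes, 14 had no row and were not analysed here. The tissue came from wild-type (WT) mice injected with CFA (complete Freund's adjuvant, mycobacteria in oil that inflame the injected tissue) or saline, and each group has 3 libraries, all labelled day 3. The labels give neurons and glia as the cells, and all 12 neuron, 8 satellite glia and 10 Schwann cell markers examined had a row and a value above 0 in every library. The sources used here do not give the injection site, sex or age of the mice.

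A collagen molecule is a triple helix of 3 chains, whose repeating glycine-X-Y triplets are hydroxylated and folded in the endoplasmic reticulum. Fibrillar collagens are then trimmed and crosslinked into the fibrils of connective tissue, FACIT collagens sit on the surface of those fibrils, and type IV collagen forms the sheet of basement membranes. In a sensory ganglion, fibroblasts and meningeal cells make most of the fibrils of the capsule and the endoneurium, while basement membranes surround Schwann cells, satellite glia and blood vessels.

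Values are FPKM (mapped fragments scaled by transcript length and library total), which are per length and so allow levels of different genes to be compared. Totals per library ran from 261183 to 275152 FPKM, and read depth is unknown. Each log2 fold change was fitted by limma to log2(FPKM + 1), with saline subtracted from CFA, and has a standard error (SE). Benjamini-Hochberg adjusted p-values cover all 12238 genes tested, of which 7 (0.0572%) passed an adjusted p of 0.05. Markers of several cell types and of other tissue moved with the groups. The choroid plexus gene Ttr stood between 186 and 258 FPKM in CFA libraries, against 1.88 to 2.25 FPKM in saline libraries. Of the 7 choroid plexus markers listed, 4 had a row (none at 0), and Folr1, Otx2 and Kcne2 had none. Aqp1 overlapped, at 31.7 to 36.2 FPKM in CFA libraries and 28.4 to 33.7 FPKM in saline libraries. Clic6 and Kl were too low to be tested, and the CFA values of Clic6 lay above all its saline values. Every deposited row had a group mean of at least 0.501 FPKM. Kl had a row only through its CFA mean (0.693 FPKM, against 0.354 FPKM with saline), so its separation is not read as a difference. The summed markers of central glia (7 of 7 with a row, none at 0) ran from 218 to 281 FPKM in CFA libraries and from 154 to 201 FPKM in saline libraries. The summed fibroblast markers (9 of 10 with a row, none at 0) overlapped between the groups, at 566 to 645 FPKM in CFA libraries and 530 to 610 FPKM in saline libraries. Of the 8 tested, 1 (Gsn; limma, adjusted p = 0.591) was higher at an unadjusted p below 0.05 and 0 lower, against 5.37% and 2.95% of all tested genes. Of 11 macrophage markers, 6 were above saline and 1 (Cd163) below it at that p, against 5.37% and 2.95% of all tested genes. The 11 markers summed to 117 to 133 FPKM in CFA libraries and 88.2 to 92.4 FPKM in saline libraries, with none at 0. The 8 satellite glia markers summed to 1641 to 2128 FPKM in CFA libraries and 1107 to 1421 FPKM in saline libraries, with none at 0. At that p 3 of 8 were above saline and 0 below it, against the same shares of all tested genes. The part of these markers in the results was not tested.

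No collagen gene passed the test over all genes. Of the 30 chains, 25 had a mean of at least 1 FPKM and were tested, and 5 (Col2a1, Col4a5, Col7a1, Col12a1 and Col26a1) did not reach that level. At an unadjusted p below 0.05, 7 tested chains were higher under CFA, where 5.37% of all tested genes were higher, and 0 were lower, where 2.95% of all tested genes were lower. These 7 were Col9a3, Col1a1, Col6a2, Col3a1, Col6a1, Col8a1 and Col11a2. The smallest adjusted p among collagens was that of Col9a3 (limma, adjusted p = 0.226). Of the 25 tested chains 19 had a log2 fold change above 0, as did 51.4% of all tested genes. The median log2 fold change was 0.14 over the 25 tested chains and 0.0052 over all tested genes. Every CFA library stood above every saline library in 6 tested chains, where 7.89% of all tested genes did so. No chain stood lower without overlap, where 6.66% of all tested genes did. Col2a1, below the filter, also separated, but it is not counted because it had a row only through its CFA mean. In bulk tissue, more or fewer cells of a type and more or less RNA per cell cannot be told apart.

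**Figure D1:**
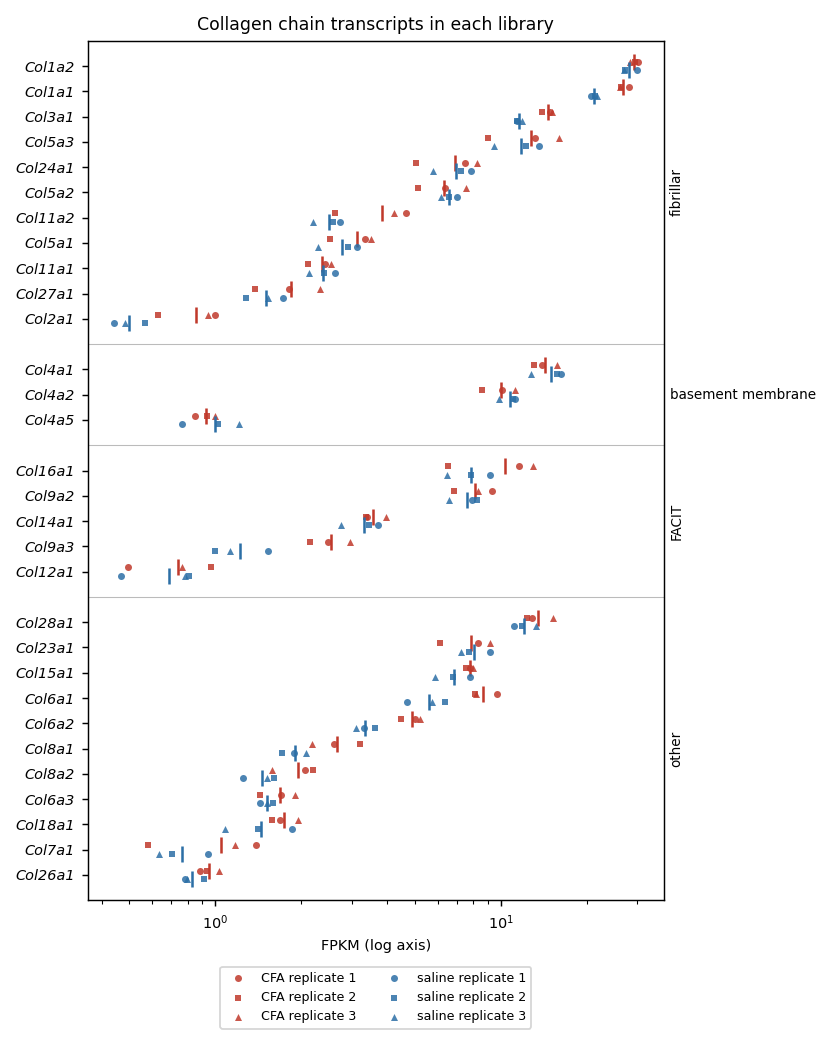
FPKM of the 30 collagen chains on a log axis, with a symbol for each of 3 CFA and 3 saline libraries and a vertical tick at each group mean, ordered by class and by mean level. Most levels of the 2 groups overlap, while for Col1a1, Col3a1, Col6a1, Col6a2, Col8a1, Col9a3 and Col2a1 all CFA symbols stand to the right of all saline symbols. Col2a1 had a row only through its CFA mean.

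Fibrillar collagens carried the largest share of collagen transcript, at 51.3% of the summed collagen FPKM in CFA libraries and 51.3% in saline libraries on average. The summed collagen level of all 30 chains was 212 ± 20.1 FPKM with CFA and 187 ± 10.97 FPKM with saline (SD, n = 3 each), and the groups overlapped (189 to 227 FPKM against 175 to 196 FPKM). Fibrillar chains alone summed to 109 ± 9.25 FPKM with CFA and 95.8 ± 5.34 FPKM with saline, which overlap, as do the type IV and FACIT sums. The chains of other types summed to 48.6 to 55.6 FPKM in CFA libraries and 42.8 to 44.4 FPKM in saline libraries, without overlap. The type IV share of the collagen sum was 11.3%, 11.9% and 12.3% in CFA libraries, against 14.4%, 14.7% and 13.6% in saline libraries, also without overlap. The fibrillar, FACIT and other shares overlapped between the groups. A share also falls when the sums of the other classes are larger, and the type IV sums themselves overlapped. Set against the summed fibroblast markers of the same library, the collagen sum gave ratios of 0.340, 0.316 and 0.402 in CFA replicates 1 to 3, against 0.334, 0.310 and 0.330 in saline replicates 1 to 3, which overlap. Apod was the largest part of that marker sum, at 299 to 364 FPKM in CFA libraries and 261 to 339 FPKM in saline libraries. Pdgfra added only 3.08 to 3.34 FPKM and 3.09 to 3.57 FPKM, so the ratio is not a level per fibroblast.

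Col1a1 and Col1a2 encode the 2 chains of type I collagen, the main fibril of connective tissue, and were the most abundant collagen transcripts. Col1a1, on chromosome 11 at 94936224 to 94953042 (GRCm38), stood at 28.03, 26.4 and 26.1 FPKM in CFA libraries, against 20.6, 21.3 and 21.7 FPKM in saline libraries. All CFA values lay above all saline values, with a 1.26-fold higher mean, and the log2 fold change of 0.33 (SE 0.0670) missed the adjusted threshold (limma, adjusted p = 0.234). Col1a2, on chromosome 6 at 4504814 to 4541544, stood at 30.1, 29.4 and 28.4 FPKM in CFA libraries, against 29.9991, 27.2 and 26.9 FPKM in saline libraries. Here the groups overlapped, and the log2 fold change of 0.06 had a 95% interval from -0.11 to 0.24.

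Col3a1, the single chain of type III collagen, forms thin fibrils together with type I and had a difference close to that of Col1a1. It stood at 14.9, 13.9 and 15.1 FPKM in CFA libraries, against 11.4, 11.4 and 11.8 FPKM in saline libraries. The groups did not overlap, and the log2 fold change of 0.32 (SE 0.0701) missed the adjusted threshold (limma, adjusted p = 0.266). Col5a2, a chain of the type V collagen that seeds fibrils, lies 24614 bases from Col3a1 on chromosome 1 on the other strand, and its groups overlapped at 5.12 to 7.55 FPKM in CFA libraries and 6.15 to 7.004 FPKM in saline libraries.

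Among the remaining tested fibrillar chains, Col11a2 had the largest log2 fold change. Col11a2, a chain of type XI collagen known from cartilage, stood at 4.65, 2.62 and 4.24 FPKM in CFA libraries, against 2.73, 2.59 and 2.19 FPKM in saline libraries. CFA replicate 2 fell inside the saline range, and the log2 fold change was 0.44 (SE 0.180; limma, adjusted p = 0.592). It was 0.64 without CFA replicate 2 (limma, adjusted p = 0.210), 0.32 without CFA replicate 1 (limma, adjusted p = 0.922) and 0.37 without CFA replicate 3 (limma, adjusted p = 0.879). Its unadjusted limma p, 0.0452, was 0.0516 with median-of-ratios scaling and 0.0606 with quantile normalization, and lay between 0.0626 and 0.141 without any one library other than CFA replicate 2. Col2a1, the chain of the main cartilage fibril, had low values of 0.998, 0.631 and 0.940 FPKM in CFA libraries, against 0.441, 0.566 and 0.482 FPKM in saline libraries, and was below the filter. Its groups did not overlap, but every deposited row had a group mean of at least 0.501 FPKM. Col2a1 reached that only with CFA (mean 0.857 FPKM, against 0.497 FPKM with saline), so its separation is not read as a difference. Of 13 cartilage and bone markers, 8 had a row, none at 0, and Acan, Matn1, Matn3, Sost and Phex had none. The list's summed level was 29.4 to 39.0 FPKM in CFA libraries and 29.6 to 35.6 FPKM in saline libraries. Cnmd, a cartilage glycoprotein, overlapped at 6.69 to 10.8 FPKM with CFA and 8.14 to 10.6 FPKM with saline, as did Ibsp, Bglap, Sox9 and Runx2. Dmp1, a matrix protein of bone cells, stood at 1.73 to 2.11 FPKM with CFA and 1.498 to 1.56 FPKM with saline, without overlap. Sp7, a factor of bone-forming cells, stood at 0.659 to 0.807 FPKM with CFA and 0.309 to 0.488 FPKM with saline. Like Col2a1, it had a row only through its CFA mean, so its separation is not read as a difference. At an unadjusted p below 0.05, 1 of 6 tested members was higher and 0 lower, against 5.37% and 2.95% of all tested genes. That member was Alpl, an alkaline phosphatase, at 6.61 ± 0.540 FPKM with CFA and 4.34 ± 0.316 FPKM with saline (SD, n = 3 each; limma, adjusted p = 0.209). Col5a3, Col24a1, Col5a1, Col11a1 and Col27a1 overlapped between the groups, with log2 fold changes from -0.025 (Col24a1) to 0.17 (Col27a1).

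**Figure D2:**
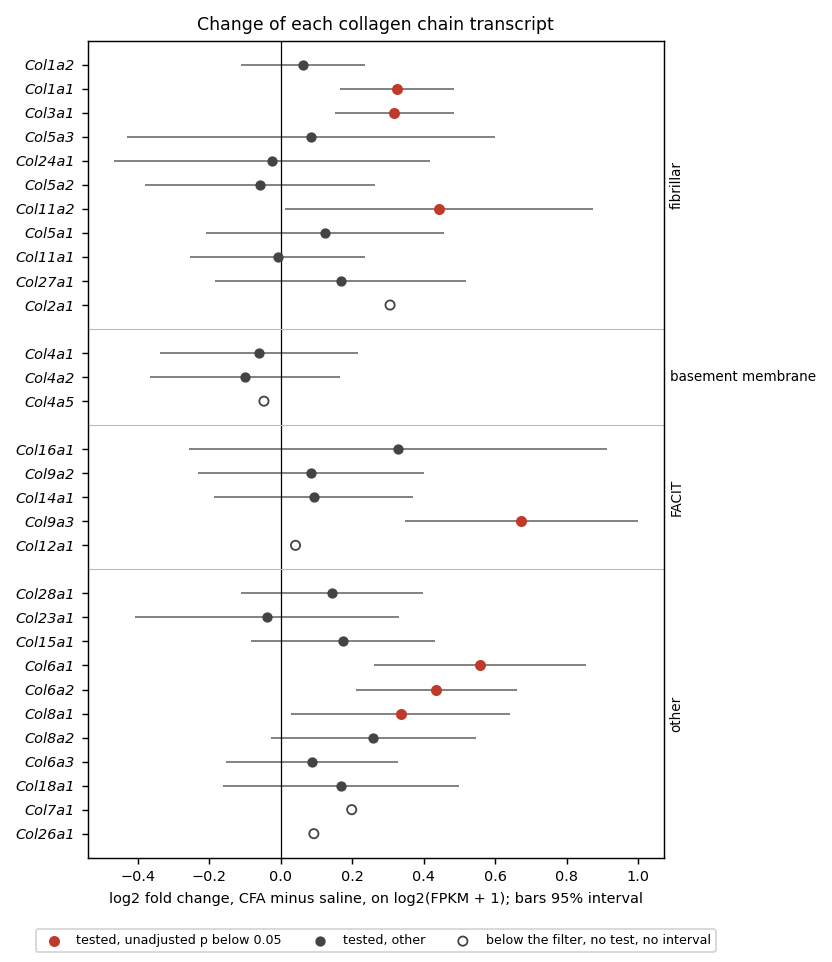
Fitted log2 fold change of each collagen chain on log2(FPKM + 1), saline subtracted from CFA, with the 95% interval from limma as a bar for the 25 tested chains; open circles are the 5 chains below the filter. Filled red points mark the 7 chains at an unadjusted p below 0.05, from 0.32 (Col3a1) to 0.67 (Col9a3), all to the right of 0.

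The 2 tested type IV chains were both below saline in the mean, and neither difference exceeded its error. Col4a1, on chromosome 8 at 11198423 to 11312826, stood at 13.97, 13.1 and 15.7 FPKM in CFA libraries, against 16.3, 15.8 and 12.8 FPKM in saline libraries. Col4a2, at 11312805 to 11449287 on the opposite strand, stood at 10.1, 8.59 and 11.2 FPKM in CFA libraries, against 11.2, 11.0 and 9.88 FPKM in saline libraries. Both overlapped, with log2 fold changes of -0.061 (95% interval -0.34 to 0.22) for Col4a1 and -0.10 (95% interval -0.37 to 0.17) for Col4a2. Col4a5, a chain of the type IV network known from the kidney glomerulus, was below the filter at 0.928 ± 0.0751 FPKM with CFA and 0.999 ± 0.227 FPKM with saline (SD, n = 3 each).

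Col4a1 and Col4a2 are read from a shared start region in opposite directions, and their annotated ends overlap by 22 bases. The RefSeq promoter windows of GRCm38.p6 (250 bases before to 50 after the start) share 78 bases, chr8:11312777-11312854, and are shown because both genes encode chains of 1 molecule and start within them. Capitals mark CCAAT (or ATTGG on the other strand) and GGGCGG (or CCGCCC), the letters known to be bound by NF-Y and Sp1; the Col4a1 window is chr8:11312777-11313076 on the minus strand and the Col4a2 window chr8:11312555-11312854 on the plus strand.
Col4a1: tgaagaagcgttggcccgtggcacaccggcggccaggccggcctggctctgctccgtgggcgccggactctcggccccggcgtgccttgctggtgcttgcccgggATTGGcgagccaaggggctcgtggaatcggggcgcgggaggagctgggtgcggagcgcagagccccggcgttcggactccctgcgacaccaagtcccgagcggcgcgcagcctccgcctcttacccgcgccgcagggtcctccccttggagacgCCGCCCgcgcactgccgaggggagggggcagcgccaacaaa
Col4a2: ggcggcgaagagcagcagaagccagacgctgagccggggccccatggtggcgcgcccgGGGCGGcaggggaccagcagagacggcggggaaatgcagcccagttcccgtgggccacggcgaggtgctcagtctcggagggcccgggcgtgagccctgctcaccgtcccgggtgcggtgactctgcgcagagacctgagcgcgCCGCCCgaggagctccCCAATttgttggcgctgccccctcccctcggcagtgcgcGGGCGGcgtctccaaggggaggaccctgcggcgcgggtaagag
Each window holds 1 CCAAT match, and GGGCGG matched 1 time in the Col4a1 window and 3 times in the Col4a2 window. The Col4a1 match of GGGCGG and the last of the Col4a2 window are the same site, which lies in the shared bases. Col4a1 over Col4a2 was 1.43 ± 0.0766 in CFA libraries and 1.39 ± 0.0844 in saline libraries (SD, n = 3 each).

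Among FACIT chains, Col9a3 had the largest log2 fold change of the 25 tested collagens, while the groups overlapped for its partner Col9a2. Both encode chains of type IX collagen, which coats cartilage-type fibrils, and its other chain, Col9a1, had no row. Col9a3, on chromosome 2 at 180597790 to 180622189, stood at 2.49, 2.15 and 2.97 FPKM in CFA libraries, against 1.53, 0.996 and 1.12 FPKM in saline libraries. The groups did not overlap, the mean was 2.08-fold higher, and the log2 fold change of 0.67 (SE 0.136) missed the adjusted threshold (limma, adjusted p = 0.226). Exons of Col9a3 overlap those of Tcfl5 on the other strand, and the sources used here do not say whether quantification used strand. Col9a2 stood at 9.30, 6.83 and 8.31 FPKM in CFA libraries, against 7.93, 8.28 and 6.60 FPKM in saline libraries, with a log2 fold change of 0.08 (95% interval -0.23 to 0.40).

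Col16a1, the most abundant FACIT chain, split the CFA libraries. It stood at 11.6, 6.55 and 12.99 FPKM in CFA libraries, against 9.12, 7.88 and 6.48 FPKM in saline libraries, so that CFA replicate 2 lay with the saline libraries and the other two above all of them. The log2 fold change was 0.33 (SE 0.245; limma, adjusted p = 0.717), and it depended on single libraries. It was 0.60 without CFA replicate 2 (limma, adjusted p = 0.263), and 0.23 without CFA replicate 1, 0.15 without CFA replicate 3 (limma, adjusted p = 0.950) and 0.21 without saline replicate 3. Col14a1 and Col12a1, FACIT chains of type I fibrils, overlapped at 3.37 to 3.96 FPKM with CFA against 2.76 to 3.71 FPKM with saline, and at 0.494 to 0.962 FPKM with CFA against 0.469 to 0.810 FPKM with saline.

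Type VI collagen forms beaded filaments in the matrix around cells, from 3 different chains. Col6a1, on chromosome 10 at 76708792 to 76726168, stood at 9.70, 8.14 and 8.21 FPKM in CFA libraries, against 4.69, 6.37 and 5.73 FPKM in saline libraries, a 1.55-fold higher mean (log2 fold change 0.56, SE 0.124; limma, adjusted p = 0.270). Col6a2, its neighbour on the same strand at 76595762 to 76623630, stood at 4.99, 4.48 and 5.21 FPKM in CFA libraries, against 3.32, 3.63 and 3.11 FPKM in saline libraries (log2 fold change 0.44, SE 0.0943; limma, adjusted p = 0.261). Neither gene's groups overlapped. Col6a3, whose gene lies apart on chromosome 1, stood at 1.70, 1.44 and 1.90 FPKM in CFA libraries, against 1.43, 1.597 and 1.52 FPKM in saline libraries, and its groups overlapped.

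The promoter windows of Col6a1 and Col6a2, neighbours that were higher together, are shown with those of Col3a1, which was also higher, and of Col1a2, whose groups overlapped (RefSeq, GRCm38.p6). Their positions are chr10:76725995-76726294 (minus strand) for Col6a1, chr10:76623355-76623654 (minus strand) for the first of 2 windows of Col6a2, chr1:45311288-45311587 (plus strand) for Col3a1 and chr6:4505368-4505667 (plus strand) for Col1a2. Capitals mark CCAAT or ATTGG and GGGCGG or CCGCCC, as above, and adjoining matches may overlap.
Col6a1: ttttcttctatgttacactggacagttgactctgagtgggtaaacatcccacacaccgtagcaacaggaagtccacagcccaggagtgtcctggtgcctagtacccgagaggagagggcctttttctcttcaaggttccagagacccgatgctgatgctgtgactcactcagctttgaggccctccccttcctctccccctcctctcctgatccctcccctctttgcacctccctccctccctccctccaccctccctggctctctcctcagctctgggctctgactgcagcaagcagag
Col6a2: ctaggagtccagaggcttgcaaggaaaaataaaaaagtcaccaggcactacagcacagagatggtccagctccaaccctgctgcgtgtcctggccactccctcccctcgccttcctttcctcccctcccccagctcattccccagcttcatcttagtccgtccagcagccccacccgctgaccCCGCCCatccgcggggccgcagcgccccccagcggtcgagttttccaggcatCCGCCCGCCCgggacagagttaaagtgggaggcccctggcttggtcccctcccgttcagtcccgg
Col3a1: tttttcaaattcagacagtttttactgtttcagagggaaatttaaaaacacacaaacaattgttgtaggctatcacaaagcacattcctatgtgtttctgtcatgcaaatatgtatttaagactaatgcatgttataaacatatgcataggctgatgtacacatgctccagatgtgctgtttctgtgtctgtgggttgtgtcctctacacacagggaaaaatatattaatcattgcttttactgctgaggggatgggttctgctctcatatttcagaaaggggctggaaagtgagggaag
Col1a2: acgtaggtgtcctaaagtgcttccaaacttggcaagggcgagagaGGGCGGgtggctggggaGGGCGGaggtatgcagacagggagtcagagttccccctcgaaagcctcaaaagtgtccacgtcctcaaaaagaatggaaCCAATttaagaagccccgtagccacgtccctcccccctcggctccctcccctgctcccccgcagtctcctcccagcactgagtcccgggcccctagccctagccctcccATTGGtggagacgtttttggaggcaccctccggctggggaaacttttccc
The Col6a1 and Col3a1 windows hold neither of these motifs, the Col6a2 window holds 3 GGGCGG matches, and the Col1a2 window holds 2 of each. Of 25 windows of the 23 collagen chains matched, 18 (72.0%) hold GGGCGG on either strand, against 35.7% of all 32851 windows, and 9 (36.0%) hold CCAAT, against 37.4% of all. TATAAA is in 8% of them, the Col3a1 window included, against 13.6% of all, and TGANTCA is in 4%, the Col6a1 window, against 7.81% of all. Median GC content was 61.0% over the collagen windows and 52.7% over all windows. Windows for Col1a1, Col2a1, Col5a2, Col9a3, Col12a1, Col14a1 and Col26a1 were not used here.

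Type VIII collagen is a short-chain network collagen of vessel walls and the cornea. Its chain Col8a1 stood at 2.61, 3.22 and 2.18 FPKM in CFA libraries, against 1.89, 1.71 and 2.08 FPKM in saline libraries, without overlap (log2 fold change 0.34, SE 0.128; limma, adjusted p = 0.580). Its partner Col8a2 stood at 2.06, 2.20 and 1.58 FPKM in CFA libraries, against 1.24, 1.603 and 1.52 FPKM in saline libraries, where CFA replicate 3 fell inside the saline range (log2 fold change 0.26; limma, adjusted p = 0.621). Endothelial markers gave 0 of 10 tested genes at an unadjusted p below 0.05, where 5.37% of all tested genes were higher and 2.95% lower. Their summed levels were 30.7 to 33.8 FPKM in CFA libraries and 28.7 to 32.1 FPKM in saline libraries. Of 8 tested markers of the mural cells of vessel walls, 1 (Cspg4) was higher and 1 (Tagln) lower at that p, against the same shares. The mural list summed to 59.7 to 64.9 FPKM in CFA libraries and 64.0 to 77.2 FPKM in saline libraries, which overlap.

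Col28a1, a collagen known in the mouse from peripheral nerve, was the most abundant of the other types. It stood at 12.8, 12.4 and 15.2 FPKM in CFA libraries, against 11.1, 11.9 and 13.2 FPKM in saline libraries, with overlap and a log2 fold change of 0.14 (95% interval -0.11 to 0.40). Col23a1, a transmembrane collagen, stood at 8.29, 6.12 and 9.17 FPKM in CFA libraries, against 9.14, 7.74 and 7.22 FPKM in saline libraries, also with overlap. The multiplexins of basement membrane zones overlapped as well, with Col15a1 at 7.79 ± 0.208 FPKM with CFA and 6.83 ± 0.977 FPKM with saline, and Col18a1 at 1.74 ± 0.187 FPKM with CFA and 1.45 ± 0.392 FPKM with saline (SD, n = 3 each). Col7a1, the chain of anchoring fibrils, and Col26a1 were below the filter, at 1.05 ± 0.418 FPKM with CFA against 0.762 ± 0.161 FPKM with saline and at 0.951 ± 0.0747 FPKM with CFA against 0.830 ± 0.0743 FPKM with saline.

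Ratios of chains that assemble into 1 molecule were taken within each library, so that scaling between libraries has no effect on them. Col1a1 over Col1a2 was 0.930, 0.896 and 0.919 in CFA libraries, against 0.687, 0.782 and 0.807 in saline libraries. The groups did not overlap, although an exact permutation test of 3 against 3 cannot give a two-sided p below 0.1. Type I collagen is mostly built from 2 chains of Col1a1 to each chain of Col1a2, and in every library the Col1a1 transcript was the less abundant of the 2 per length.

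Col6a1 over Col6a3 was 5.70, 5.66 and 4.32 in CFA libraries, against 3.28, 3.99 and 3.76 in saline libraries, and Col6a2 over Col6a3 averaged 2.93 ± 0.186 in CFA libraries and 2.21 ± 0.147 in saline libraries (SD, n = 3 each), both without overlap. Col6a1 over Col6a2 overlapped, at 1.78 ± 0.188 in CFA libraries and 1.67 ± 0.226 in saline libraries. Col9a2 over Col9a3 was 3.74, 3.18 and 2.79 in CFA libraries, against 5.18, 8.31 and 5.87 in saline libraries, and Col11a1 over Col11a2 was 0.522, 0.805 and 0.601 in CFA libraries, against 0.960, 0.931 and 0.968 in saline libraries. In both of these the CFA values lay below all saline values. Of 10 ratios within 1 molecule, 6 did not overlap between the groups, and several share a chain. These include Col5a2 over Col5a1, at 1.91, 2.03 and 2.15 in CFA libraries, against 2.23, 2.26 and 2.69 in saline libraries. Col5a3 over Col5a1 and Col8a1 over Col8a2 overlapped. The share without overlap among ratios of other gene pairs was not computed, so the count has no background beside it. Ratios of Col3a1 to the type I chains, outside these 10, were added after the values were seen. Col3a1 over Col1a2 was 0.495, 0.474 and 0.531 in CFA libraries, against 0.380, 0.418 and 0.439 in saline libraries, without overlap, and Col3a1 over Col1a1 overlapped at 0.546 ± 0.0272 in CFA libraries and 0.544 ± 0.00935 in saline libraries (SD, n = 3 each).

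**Figure D3:**
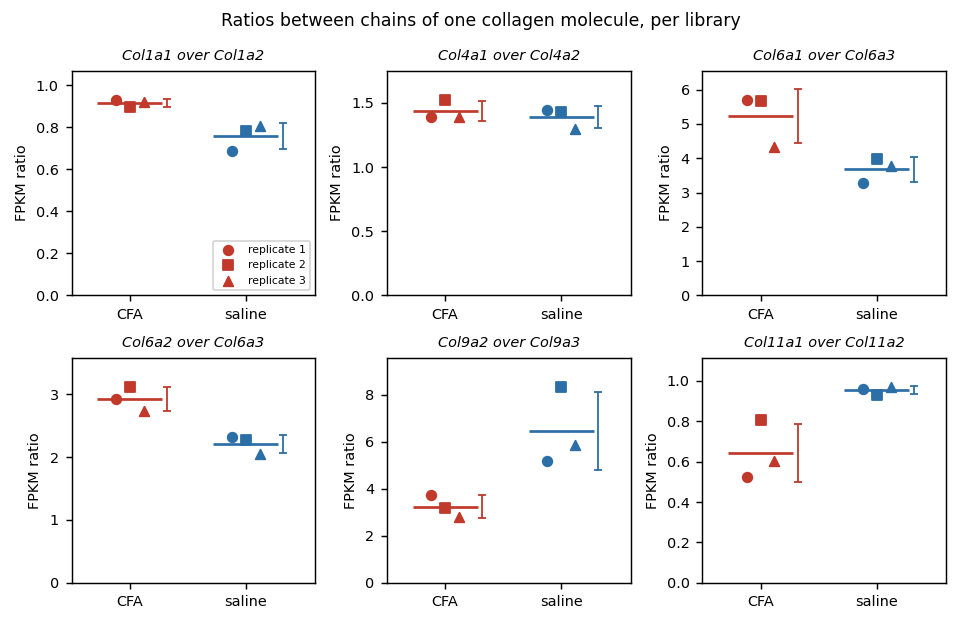
FPKM ratios of chains of 1 collagen molecule per library, with symbols for replicates 1 to 3 of CFA (left) and saline (right), a line at each group mean and a bar of 1 SD beside it; axes start at 0. Col1a1 over Col1a2 and both ratios over Col6a3 lie higher in all CFA libraries, Col9a2 over Col9a3 and Col11a1 over Col11a2 lie lower, and Col4a1 over Col4a2 overlaps. Not drawn are Col5a2 over Col5a1, which lies lower in all CFA libraries, and Col5a3 over Col5a1, Col6a1 over Col6a2 and Col8a1 over Col8a2, which overlap.

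Across the chains the libraries did not vary alike. CFA replicate 2 was the lowest CFA library in 23 of 30 chains and CFA replicate 3 the highest in 20. Among saline libraries, replicate 1 was the highest in 17 chains and replicate 3 the lowest in 17. The median deviation from a chain's mean over the 6 libraries was 0.10, -0.033 and 0.19 on the log2(FPKM + 1) scale in CFA replicates 1 to 3, and 0.028, -0.057 and -0.15 in saline replicates 1 to 3. Other measures also set single libraries apart. Mitochondrial genes took 7.24% of the FPKM total in CFA replicate 3, against 10.6% to 13.7% in the other libraries. Summed neutrophil markers were 54.9, 303 and 63.2 FPKM in CFA libraries, against 56.6, 79.2 and 525 FPKM in saline libraries. Summed pituitary markers ran from 233 to 2850 FPKM in CFA libraries and from 190 to 4844 FPKM in saline libraries, and skeletal muscle markers from 2.60 to 42.7 FPKM in CFA libraries and from 4.91 to 174 FPKM in saline libraries, highest in saline replicate 3. Their part in the collagen levels was not tested. Without CFA replicate 2 the median log2 fold change of the 25 tested chains was 0.20, and without CFA replicate 3 it was 0.067, in place of 0.14. Col5a3, Col24a1, Col16a1 and Col23a1 had their lowest CFA value in replicate 2, while Col1a1, Col3a1, Col6a1, Col6a2 and Col9a3 kept that library above every saline library. With CFA replicate 1, 2 or 3 left out in turn, 5, 7 and 7 collagens were higher at an unadjusted p below 0.05, where 3.37%, 8.33% and 3.64% of all tested genes were.

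**Figure D4:**
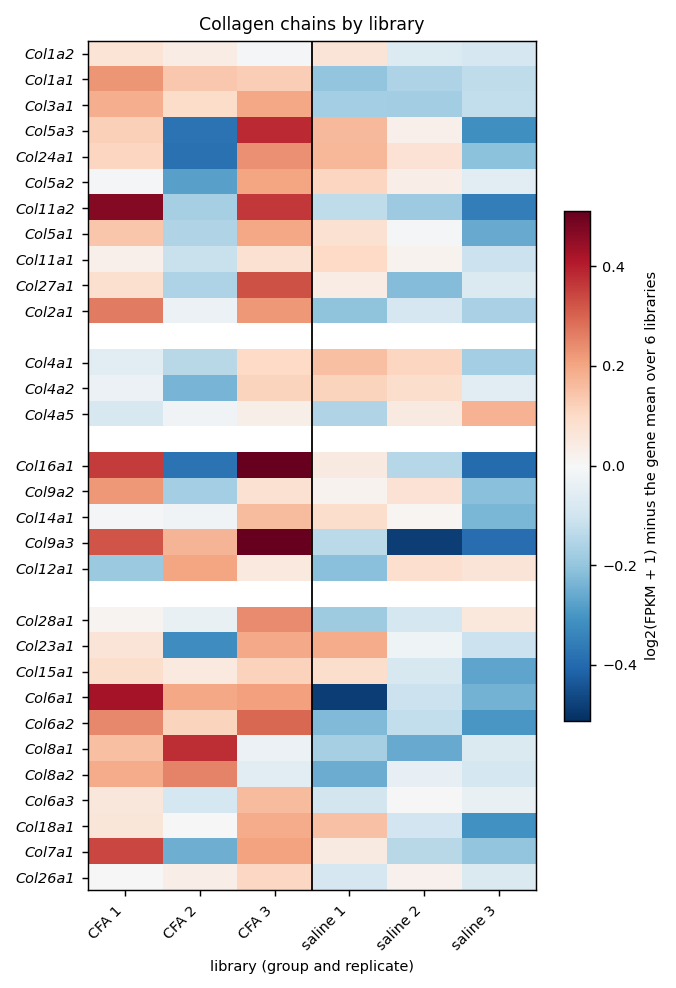
Deviation of log2(FPKM + 1) from the mean of each chain over 6 libraries, as colour, for 30 collagen chains (rows, by class) and CFA and saline libraries (columns). Col1a1, Col3a1, Col6a1, Col6a2 and Col9a3 are above their mean in all 3 CFA columns, whereas CFA replicate 2 is the lowest CFA column in 23 chains.

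The classes also differ in how their genes are built, as annotated in GENCODE M21, whose coordinates equal those of the table for all 30 chains. Taking the transcript with the longest coding sequence, 48.6% of 627 inner coding exons of the 11 fibrillar genes were exactly 54 bases long, enough for 6 glycine-X-Y triplets, and 83.9% were a multiple of 9 bases, the length that codes for 1 triplet. In the 3 type IV genes 4.11% of 146 inner coding exons had 54 bases, in the 5 FACIT genes 20.4% of 235 and in the 11 other genes 6.65% of 361. Col9a2 and Col9a3 each had 14 of 30 at that length, close to the share in fibrillar genes, and Col8a1 and Col8a2 had no inner coding exon at all.

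Genes that act on collagens were read from the same fit, and none of them passed over all genes. Of 19 tested genes of hydroxylation and folding, P3h1, a prolyl 3-hydroxylase, was above saline and its relative P3h3 below it at an unadjusted p below 0.05, against 5.37% and 2.95% of all tested genes, and the list median was 0.11 on the log2 scale. P3h1 averaged 2.32 ± 0.101 FPKM with CFA and 1.73 ± 0.251 FPKM with saline (SD, n = 3 each). Serpinh1, the collagen chaperone HSP47, stood at 40.9, 36.7 and 37.9 FPKM in CFA libraries, against 35.0, 29.4 and 16.2 FPKM in saline libraries, without overlap (limma, adjusted p = 0.620). Export and propeptide removal had 0 of 8 tested genes at that level in either direction and a median of -0.094. Of these 8, 3 had a log2 fold change above 0 and 5 below it. The propeptidase gene Adamts2 stood at 1.72 ± 0.0374 FPKM with CFA and 1.38 ± 0.113 FPKM with saline. The export gene Sec24d stood at 2.44 ± 0.224 FPKM with CFA and 3.05 ± 0.499 FPKM with saline.

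In crosslinking and fibril organisation, 1 of 12 tested genes stood above saline and 1 below it with an unadjusted p below 0.05, where 5.37% and 2.95% of all tested genes did. Lox, the lysyl oxidase that crosslinks collagen and elastin, stood at 2.66, 3.27 and 2.24 FPKM in CFA libraries, against 5.45, 5.26 and 8.54 FPKM in saline libraries. All CFA values were below all saline values (log2 fold change -0.98, SE 0.192; limma, adjusted p = 0.221). Fbln1, a matrix glycoprotein, averaged 3.36 ± 0.0693 FPKM with CFA and 2.38 ± 0.553 FPKM with saline (limma, adjusted p = 0.567).

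Among collagen receptors and uptake genes, 2 of 7 tested were higher at an unadjusted p below 0.05 and none lower, against 5.37% and 2.95% of all tested genes. Mrc2, the receptor Endo180 that takes up collagen fragments, stood at 4.42, 4.32 and 4.41 FPKM in CFA libraries, against 2.19, 2.52 and 2.88 FPKM in saline libraries (log2 fold change 0.61, SE 0.0998; limma, adjusted p = 0.151). The collagen-binding kinase Ddr2 averaged 3.45 ± 0.315 FPKM with CFA and 2.70 ± 0.212 FPKM with saline. The degradation list had 2 of 7 tested genes higher at that level, against 5.37% of all tested genes: Timp1, an inhibitor of matrix metalloproteinases, at 5.87, 5.53 and 3.92 FPKM in CFA libraries against 1.39, 1.92 and 1.63 FPKM in saline libraries (limma, adjusted p = 0.101), and the membrane-bound collagenase Mmp14 at 7.11 ± 0.483 FPKM with CFA and 5.32 ± 0.530 FPKM with saline (limma, adjusted p = 0.406). Of 14 tested TGF-beta pathway genes and inducers, Smad2, a signal transducer of TGF-beta, was lower at that level (3.30 ± 0.288 FPKM with CFA and 5.69 ± 1.77 FPKM with saline; limma, adjusted p = 0.540), 0 were higher, against 2.95% lower and 5.37% higher among all tested genes, and the list median was 0.046.

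**Figure D5:**
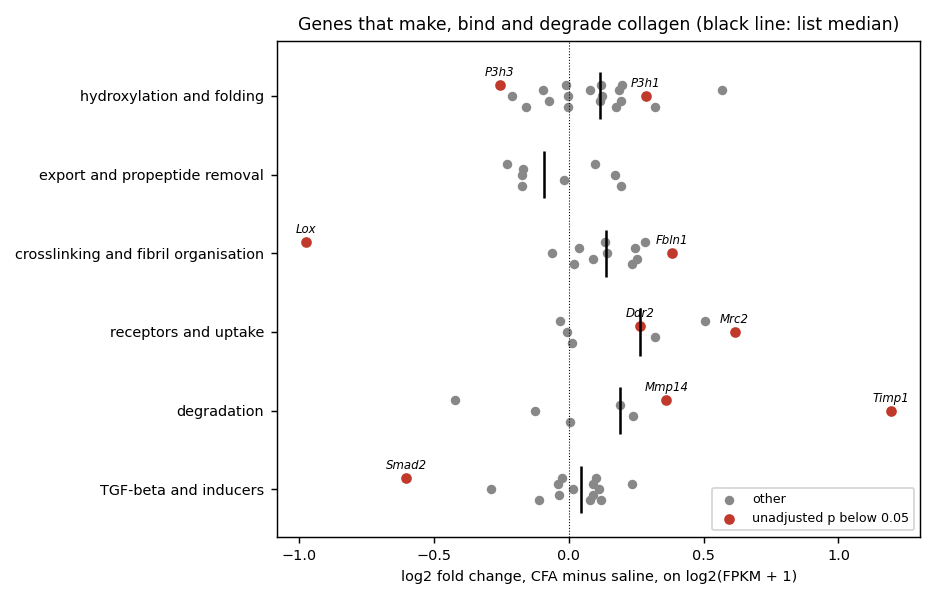
Log2 fold changes, CFA minus saline, of tested genes that process, bind, degrade or induce collagen, 1 point per gene and 1 row per list, with the list median as a black line. Lox at -0.98 and Timp1 at 1.20 lie farthest from 0, and the labelled red points are those at an unadjusted p below 0.05.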

How the data were processed

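RNA was measured in 6 libraries of mouse trigeminal ganglion, 3 CFA and 3 saline. Poly(A) RNA was selected and stranded libraries were made, per the labels' protocols. The authors deposited FPKM values, per the file headers. The submitters' processing notes name build GRCm38, and the sources used here do not name the aligner, quantifier or strand setting. In each of the 13673 rows the larger group mean was at least 0.501 FPKM, so lower rows had been left out, and 1 line was emptied for this work. Read depth is unknown, so no counting interval is given, and the number of libraries limits precision.

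Genes whose mean over the 6 libraries reached 1 FPKM were compared on log2(FPKM + 1) with limma 3.58.1 in R 4.3.3 (lmFit, eBayes with trend, two-sided), with Benjamini-Hochberg adjustment over 12238 genes. The labels tie no library to an animal, and the p-values reflect only differences among these libraries, which may be technical. The functions were tested on simulated data. Alternatives were pseudocount, filter, scaling, variance model, replicate block and leaving out each library. Members, gene lists and alternatives were chosen with earlier results of these data known. Values in every library are given for chains at an unadjusted p below 0.05, for chains without overlap and for the 2 most abundant of each class; in the other lists up to 4 genes of smallest p are named, and other genes named were chosen after their values were seen. Figures were drawn with matplotlib 3.10.9.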

Additional observations from a re-analysis of the deposited data

How the results depend on the processing

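No collagen gene passed over all genes by limma under any of the 16 alternatives run, and 0 were lower at an unadjusted p below 0.05. The count of collagens higher at that level was 7 of 25 tested, where 5.37% of all tested genes were higher. It became 3 of 14 tested with the filter at 5 FPKM (5.60% of all tested genes), 8 of 30 with no filter (5.48%) and 5 of 25 with the replicate block (5.06%). The chain added with no filter was Col2a1, which had a row only through its CFA mean. Without any 1 library the count ran from 5 to 7, where the share of all tested genes ran from 3.37% to 8.33%. The median log2 fold change of tested collagens ran from 0.067 to 0.20 across the fits that leave out a library. The count of all genes called, 7, became 13 with robust variances and 1 with the replicate block, and ran from 5 to 19 without any one library. Same-numbered libraries had correlations of their deviations of 0.080, 0.11 and -0.048 over 12238 genes, so the numbers were not taken to pair the libraries, and CFA replicate 3 correlated best with saline replicate 1. Of 30 chains, 10 changed sign under at least 1 alternative: Col5a2, Col5a3, Col11a1, Col12a1, Col14a1, Col24a1, Col4a5 and the 3 that follow. Col4a1 ran from -0.16 to 0.0012 over all settings, with 0.0012 without saline replicate 1, Col9a2 reached -0.0063 without CFA replicate 1 and -0.0027 without saline replicate 3 (highest 0.19), and Col23a1 reached 0.11 without CFA replicate 2 and 0.048 without saline replicate 1 (lowest -0.15); the cause was not tested. Col1a1, Col3a1, Col6a1, Col6a2 and Col9a3 kept an unadjusted p of at most 0.0167 in every fit that tested them, while that of Col8a1 reached 0.107 and that of Col11a2 0.141. Unknown depth limits what can be said of the chains under 1 FPKM.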

Other observations

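Col4a3bp, the row that matches the name rule and encodes a ceramide transfer protein, stood at 15.97, 2.83 and 16.0 FPKM in CFA libraries, against 1.98, 2.97 and 3.29 FPKM in saline libraries. CFA replicates 1 and 3 were far above the other libraries and CFA replicate 2 lay inside the saline range (log2 fold change 1.48, SE 0.575; limma, adjusted p = 0.580).

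Several markers of the meninges, whose cells also make collagen, differed between the groups at an unadjusted p below 0.05 without passing over all genes. Crabp2, a retinoic acid binding protein, stood at 9.89, 9.10 and 11.9 FPKM in CFA libraries, against 4.69, 5.36 and 5.12 FPKM in saline libraries (limma, adjusted p = 0.0962). Ogn, the small leucine-rich proteoglycan osteoglycin, stood at 145, 180 and 161 FPKM in CFA libraries, against 237, 203 and 239 FPKM in saline libraries (limma, adjusted p = 0.287). Of 7 tested members of that list 3 were higher and 1 lower at that level, against 5.37% and 2.95% of all tested genes. Dcn and Lum, proteoglycans that bind collagen fibrils, both overlapped, with Dcn at 101, 111 and 89.5 FPKM in CFA libraries and 107, 114 and 111 FPKM in saline libraries.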
